A study of Mus musculus with 42 samples.

Results

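The arcuate nucleus (ARC) of fed mice was compared with the ventromedial hypothalamus (VMH) of fed mice across all genes of the deposited table. The members are the 5 libraries labelled ARC-Fed and the 6 labelled VMH-Fed, which are 11 of the 42 libraries of the series. All came from adult wild-type male C57/BL6 mice with food ad libitum, and no library in either group carries an allele or a treatment. The series also holds ARC-Fast (n = 5) and VMH-Fast (n = 6) libraries of mice of the same strain and genotype deprived of food for 24 hours, and libraries of 2 other nuclei, the paraventricular nucleus (PVN) and the dorsomedial hypothalamus (DMH). Each library is a nucleus cut by laser from brain sections, so it holds every cell type of the cut tissue, and the RNA was amplified before single-end sequencing without strand information. The study dissected the nuclei from the same brains. The labels do not say which ARC and VMH libraries shared a mouse, so the libraries were treated as independent and p-values measure the spread between libraries.

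The ARC lies at the base of the third ventricle beside the median eminence and senses hormones that report energy stores. It is known for neurons that make Agrp and Npy, which promote feeding, for neurons that make Pomc, which restrain it, and for neuroendocrine neurons that release Ghrh, somatostatin or dopamine towards the pituitary. The VMH lies just above it, is built mainly of glutamatergic neurons, and depends in development on the nuclear receptor Nr5a1 (steroidogenic factor 1). It is known for roles in energy expenditure, glucose counterregulation, defence and sexual behaviour.

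Values are RPKM, reads per kilobase of gene per M reads. They carry a small count added to the reads, so a gene with no reads sits at a low value and not at 0, and a difference against such a gene understates the true one. Differences are on the log2(RPKM + 1) scale, ARC-Fed minus VMH-Fed, with a standard error (SE) from a limma fit over all 42 libraries, and a gene passed the threshold at an adjusted p under 0.1. The estimated depth was 4.48 ± 0.328 M reads (SD, n = 5) in ARC-Fed and 3.2 ± 1.21 M reads (n = 6) in VMH-Fed (two-sided exact permutation p = 0.0303), so depth moved with nucleus. With depth as a covariate, 1191 genes were higher in ARC-Fed and 1385 in VMH-Fed, beside the counts without it given next. The first principal component of 10426 well expressed genes (36.9% of the variance) separated every ARC-Fed from every VMH-Fed library. The VMH-Fed 1 library stood apart from the other VMH-Fed libraries on the second component, at -42.7, and had 2.02 M reads. Correlations between libraries ran from 0.903 to 0.942 within ARC-Fed, from 0.856 to 0.943 within VMH-Fed and from 0.792 to 0.880 between the nuclei.

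Of 33579 genes tested, 1286 (3.83%) were higher in ARC-Fed and 1368 (4.07%) in VMH-Fed, or 7.9% in either direction. The groups did not overlap, meaning that every library of the higher nucleus was above every library of the other, in 676 genes with ARC above (2.01%) and 804 with VMH above (2.39%), and of these 609 (1.81%) and 754 (2.25%) also passed the threshold. A difference of at least 1 on the log2 scale was passed by 315 genes (0.938%) towards ARC and 392 (1.17%) towards VMH, and one of at least 2 by 57 (0.17%) and 52 (0.155%). Among the 24005 tested genes that had a read in at least 4 libraries, the shares past the threshold were 5.25% and 5.66%, and among the 16461 of these that are protein-coding they were 7.19% and 7.65%. The shares of 7.19% towards ARC and 7.65% towards VMH are the background for the gene lists below. A list share near its background is no result about that list. The libraries fell into 3 batches by the traces of a batch correction in the values, with 1, 2 and 2 ARC-Fed libraries and 2 VMH-Fed libraries in each. Of the genes past the threshold, 1198 of the 1286 higher in ARC-Fed (93.2%) and 1308 of the 1368 higher in VMH-Fed (95.6%) differed in the same direction within all 3 batches. The batches are parts of the libraries that gave the calls, and 1 batch held a single ARC-Fed library. The choice of genes thus largely sets this agreement, which is not a repeat in other libraries.

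**Figure D1:**
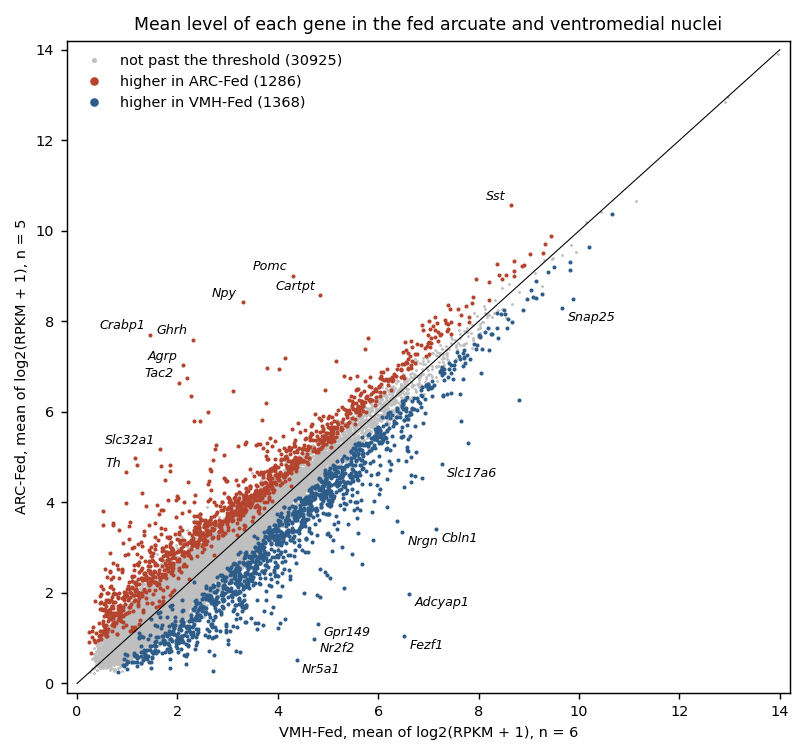
Mean log2(RPKM + 1) of each of the 33579 genes tested in VMH-Fed (horizontal axis, n = 6) against ARC-Fed (vertical axis, n = 5), with genes past the threshold in red where ARC-Fed was higher and in blue where VMH-Fed was higher. Most genes lie near the line of equal means, and Crabp1, Ghrh, Npy and Agrp lie farthest above it and Fezf1, Adcyap1, Nr5a1 and Nr2f2 farthest below.

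The labels were first checked against genes known for each nucleus. Of 19 tested arcuate neuron genes, 17 were higher in ARC-Fed and 0 in VMH-Fed, with a median difference of 3.68 where the median of all genes tested was 0. Of 18 ventromedial neuron genes, 0 were higher in ARC-Fed and 18 in VMH-Fed, with a median of -2.37. These genes were listed for what they are known to mark, so the counts describe the dissection and are not evidence of a new difference. Some of them also belong to lists below, such as those of peptides, receptors, dopamine genes and transcription factors, and add to the shares there. The arcuate members that did not pass were Mc3r, a melanocortin receptor (10.9 ± 2.7 RPKM in ARC-Fed and 11.3 ± 5.69 RPKM in VMH-Fed), and Htr2c, a serotonin receptor (2.15 ± 0.534 RPKM in ARC-Fed and 2.72 ± 1.05 RPKM in VMH-Fed). Kiss1 was not analysed here.

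The genes with the largest excess in ARC-Fed were led by Crabp1, Ghrh, Npy, Agrp, Pomc and Tac2. Crabp1 (chromosome 9, 54764748 to 54773110 of GRCm38) encodes a cytosolic retinoic acid binding protein. Its levels were 245, 246, 186, 180.4 and 193 RPKM in the 5 ARC-Fed libraries and between 1.33 and 2.33 (median 1.73) in the 6 VMH-Fed libraries (log2 difference 6.25 ± 0.29 SE, limma adjusted p = 2.6e-17). Crabp1 without a read would stand at about 1.33 RPKM, the median of values that can differ between batches. Every VMH-Fed library was near that floor, and the ratio of the mean RPKM values was 119. Fed DMH and PVN libraries were low as well, with means of 3.72 and 4.14 RPKM. Ghrh (chromosome 2, 157329497 to 157347506), the hypothalamic hormone that drives growth hormone release, had 286, 196, 135, 199 and 177 RPKM in ARC-Fed and between 1.25 and 10.9 (median 3.76) in VMH-Fed (log2 difference 5.28 ± 0.42 SE, limma adjusted p = 8.96e-12).

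The feeding peptides of the ARC differed almost as much. Npy (chromosome 6, 49822710 to 49829507), neuropeptide Y, had 314, 359, 453, 284 and 317 RPKM in ARC-Fed and 41.5, 4.54, 11.5, 4.51, 9.77 and 4.2 in VMH-Fed (log2 difference 5.12 ± 0.42 SE, limma adjusted p = 2.62e-11). A single library, VMH-Fed 1, carried most of the VMH signal of Npy, and the groups did not overlap. Agrp, the agouti-related melanocortin antagonist made by the same neurons, had 179, 157, 109.8, 116 and 105 RPKM and 2.49, 8.82, 2.03, 3.02, 2.31 and 3.58 (log2 difference 4.93 ± 0.32 SE, limma adjusted p = 6.43e-14), where the highest VMH value was in VMH-Fed 2. Pomc (chromosome 12, 3954951 to 3960642), the precursor of alpha-MSH, was the most abundant of the 15 leading ARC genes, with 517, 531, 493, 634 and 414 RPKM in ARC-Fed and between 12.5 and 25.7 (median 21.1) in VMH-Fed (log2 difference 4.71 ± 0.28 SE, limma adjusted p = 1.33e-14). Cartpt, which encodes the CART peptides, had 401, 438, 352, 460.3 and 283 RPKM in ARC-Fed and between 21.1 and 47.8 (median 25.6) in VMH-Fed (log2 difference 3.73 ± 0.28 SE, limma adjusted p = 3.06e-12). Unlike Crabp1 it was clearly present in every VMH-Fed library. Tac2, the precursor of neurokinin B, had 183, 114, 88.1, 85.3 and 61.5 RPKM and between 1.39 and 12.2 (median 2.46) (log2 difference 4.62 ± 0.36 SE, limma adjusted p = 6.1e-12), again with VMH-Fed 1 the highest of its group.

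The other leading ARC genes were not peptides. Asb4, which encodes an ankyrin repeat protein of ubiquitin ligase complexes, had 125, 119, 106, 89.7 and 95.9 RPKM in ARC-Fed and between 1.34 and 7.4 (median 3.48) in VMH-Fed (log2 difference 4.56). Dgkk, a diacylglycerol kinase, averaged 82.6 ± 25.6 RPKM in ARC-Fed and 4.51 ± 3.46 RPKM in VMH-Fed, and Rasgrp1, a diacylglycerol-responsive activator of Ras, averaged 54.7 ± 5.41 RPKM in ARC-Fed and 4.09 ± 0.667 RPKM in VMH-Fed. The T-box factor Tbx3 had 38.1, 36.9, 28.3, 24.4 and 27.9 RPKM against between 0.729 and 3.23 (median 1.12) (log2 difference 3.83). Th, tyrosine hydroxylase, the rate-limiting enzyme of dopamine synthesis, had 39.1, 13.1, 22.7, 28.5 and 25.2 RPKM against between 0.429 and 2.84 (median 0.745) (log2 difference 3.68). The vesicular GABA transporter Slc32a1 and the GABA-A receptor subunit Gabre had log2 differences of 3.52 and 3.4, and 23.7% of the 50-base stretches of Slc32a1 recur in the antisense gene Gm14205. A predicted X-linked protein-coding gene, 4933403O08Rik, had 66.7, 18.9, 27.2, 20.7 and 21 RPKM and between 0.616 and 2.78 (median 0.964). Among the 4 fed nuclei, 14 of these 15 genes had their highest mean in the ARC, and the exception was Slc32a1, with 43.6 RPKM in the DMH. The groups were required not to overlap in choosing these 15 genes, which fixes their direction within each batch. Their differences ran from 3.40 to 6.25, with none under 3.28 in any batch.

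**Figure D2:**
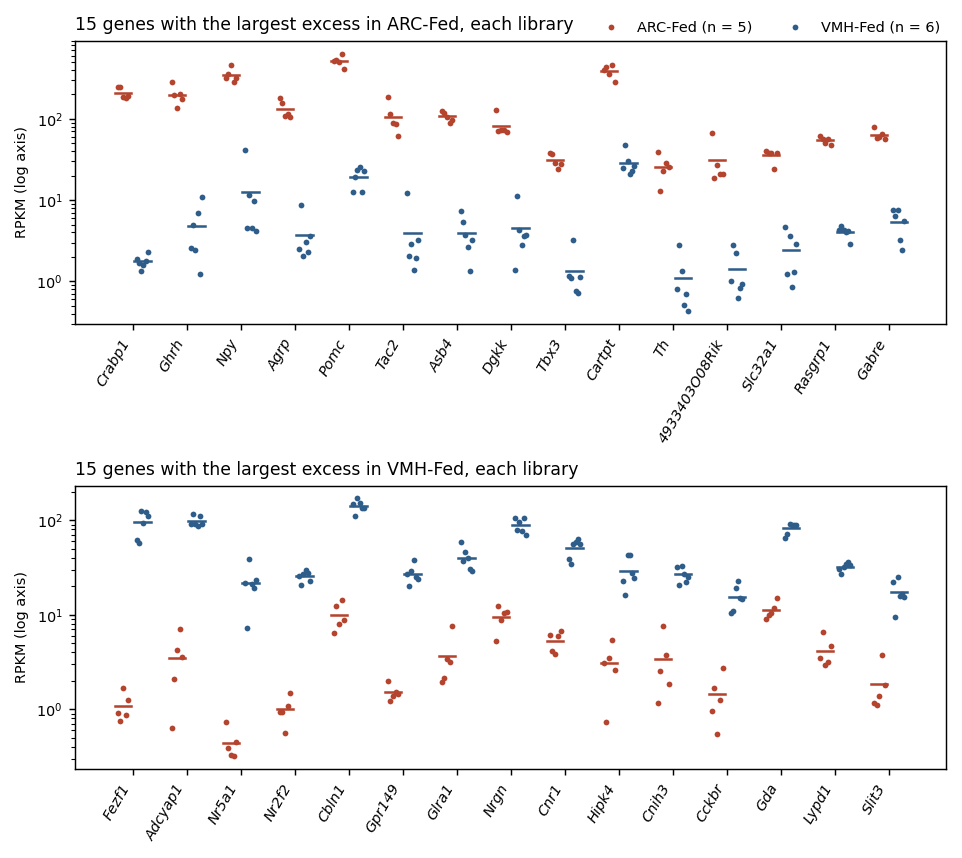
RPKM on a log axis of each ARC-Fed (red, n = 5) and VMH-Fed (blue, n = 6) library for the 15 genes with the largest excess in ARC-Fed (top) and the 15 with the largest excess in VMH-Fed (bottom), where a point is 1 library and a bar is the group mean. The groups do not overlap in any of the 30 genes, which is how they were chosen, and Npy in VMH-Fed 1 (41.5 RPKM) stands above the other VMH-Fed libraries.

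The genes with the largest excess in VMH-Fed were led by Fezf1, Adcyap1, Nr5a1, Nr2f2 and Cbln1. Fezf1 (chromosome 6, 23245044 to 23248362), a zinc finger repressor needed for VMH differentiation, had 0.912, 0.751, 1.68, 0.877 and 1.24 RPKM in ARC-Fed and 61.6, 57.8, 126, 92.5, 121 and 110.3 in VMH-Fed (log2 difference -5.47 ± 0.29 SE, limma adjusted p = 5.56e-16). No ARC-Fed library passed 1.68 RPKM, and the ratio of the means was 86.9. Adcyap1 (chromosome 17, 93199017 to 93206537), the precursor of the peptide PACAP, had 0.636, 2.08, 4.22, 7.15 and 3.53 RPKM and between 86.5 and 116 (median 91.8) (log2 difference -4.64 ± 0.28 SE, limma adjusted p = 9.97e-15). Nr5a1 (chromosome 2, 38692656 to 38714542), the nuclear receptor that defines VMH neurons, had 0.731, 0.389, 0.325, 0.319 and 0.448 RPKM and 21.6, 7.29, 38.5, 20.9, 19.2 and 23.4 (log2 difference -3.85 ± 0.22 SE, limma adjusted p = 4.5e-15). VMH-Fed 2 was the lowest of its group for Nr5a1 and still stood above every ARC-Fed library. Nr2f2 (COUP-TFII), another orphan nuclear receptor, had a narrow range in each group, with between 20.7 and 29.8 (median 26.4) RPKM in VMH-Fed and 0.933, 0.938, 0.565, 1.07 and 1.48 in ARC-Fed (log2 difference -3.75 ± 0.14 SE, limma adjusted p = 6e-20).

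Synaptic and signalling genes made up the rest of the leading VMH genes. Cbln1, a secreted synaptic organiser, had 6.43, 12.5, 7.92, 14.3 and 8.77 RPKM in ARC-Fed and between 111 and 171 (median 142) in VMH-Fed (log2 difference -3.74). Nrgn (neurogranin), a postsynaptic calmodulin-binding protein, averaged 9.5 ± 2.68 RPKM in ARC-Fed and 88.9 ± 15.6 RPKM in VMH-Fed. The glycine receptor subunit Glra1 averaged 3.66 ± 2.34 RPKM in ARC-Fed and 40.2 ± 11.2 RPKM in VMH-Fed. The cannabinoid receptor Cnr1 had 6.13, 4.12, 3.85, 5.9 and 6.68 RPKM and between 34.1 and 64.1 (median 56) (log2 difference -3.04 ± 0.16 SE, limma adjusted p = 8.15e-16), and the cholecystokinin receptor Cckbr had 0.962, 1.67, 0.542, 1.26 and 2.73 and between 10.4 and 22.7 (median 15). The orphan receptor Gpr149, the kinase Hipk4, the AMPA receptor auxiliary protein Cnih3, the guanine deaminase Gda, the nicotinic receptor modulator Lypd1 and the guidance ligand Slit3 completed the list, with differences from -3.48 to -2.71. All 15 had their highest mean in the VMH among the 4 fed nuclei, and within single batches none of the 15 differed by less than 2.22. Their direction within a batch was fixed by choosing genes without overlap.

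The sequence before the start site is shown for 3 leading genes, 2 higher in ARC-Fed and 1 higher in VMH-Fed, because their promoters hold short motifs that were counted over all genes. Sequences are from RefSeq on GRCm38.p6 and run 5′ to 3′ on the strand of the gene over the 250 bases before the start site. Capitals mark TATAAA (the TATA box), TAATTA (the core bound by many homeodomain proteins) and TGACGTCA (the cyclic AMP response element).
Pomc, chr12:3954695-3954944, plus strand: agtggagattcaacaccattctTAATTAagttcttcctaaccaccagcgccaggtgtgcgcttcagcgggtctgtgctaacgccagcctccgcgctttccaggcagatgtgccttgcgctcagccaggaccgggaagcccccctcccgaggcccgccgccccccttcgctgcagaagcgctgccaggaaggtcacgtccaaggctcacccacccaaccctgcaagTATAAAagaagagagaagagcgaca
Th, chr7:142899996-142900245, minus strand: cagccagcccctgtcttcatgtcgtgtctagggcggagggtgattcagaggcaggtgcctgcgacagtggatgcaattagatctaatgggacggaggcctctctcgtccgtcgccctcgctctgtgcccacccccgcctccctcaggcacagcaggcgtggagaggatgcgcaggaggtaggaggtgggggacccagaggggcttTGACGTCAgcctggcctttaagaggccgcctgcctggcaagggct
Adcyap1, chr17:93198918-93199167, plus strand, 1 of 2 listed windows: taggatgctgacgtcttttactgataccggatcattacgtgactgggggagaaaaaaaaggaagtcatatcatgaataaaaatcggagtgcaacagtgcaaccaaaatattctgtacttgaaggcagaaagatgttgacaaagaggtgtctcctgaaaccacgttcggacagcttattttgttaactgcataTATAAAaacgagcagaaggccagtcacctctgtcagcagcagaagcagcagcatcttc
In the Pomc window TATAAA began 25 bases and TAATTA 228 bases before the start, in the Th window TGACGTCA began 45 bases before it, and in the Adcyap1 window TATAAA began 58 bases before it. The Adcyap1 window was the first of its 2 listed windows that held TATAAA, so its match was fixed by the choice. Its start site lies downstream of the gene start given above, so part of the printed sequence falls within that gene span. Windows of 300 bases (250 before and 50 after the start) were listed for 13914 of 18082 tested protein-coding genes and for 24 of the 30 leading genes and were searched on both strands, and a gene with several windows counted where any held the letters. TGACGTCA stood in 2.85% of all genes with a window. Among genes higher in ARC-Fed by at least 1 it stood in 10 of 242 (4.13%). Among those higher in VMH-Fed by at least 1 it stood in 1 of 258 (0.388%). The 10 ARC genes were Cartpt, Celf6, Col24a1, Dio2, Pcsk1, Rps9, Slc18a2, Sst, Sstr2 and Th. TAATTA stood in 4.73% of all genes with a window, 3.31% of the ARC genes and 6.98% of the VMH genes. TATAAA stood in 12.9%, 12.4% and 7.36%. CAAGGTCA, a site bound by Nr5a1, stood in 1.43%, 1.24% and 1.55%. Differences between these shares were not tested. A match is a description of these letters and not of binding.

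Neuropeptide genes were more often higher in the ARC. Of 41 tested precursors, 14 were higher in ARC-Fed (34.1%) and 4 in VMH-Fed (9.76%), against 7.19% and 7.65% of protein-coding genes with a read in at least 4 libraries (3.83% and 4.07% of all genes), so the share higher in VMH-Fed was near that of protein-coding genes. Beyond those above, Sst (somatostatin) was the most abundant, with 1539, 1495, 1448, 1383 and 1744 RPKM in ARC-Fed and between 336 and 525 (median 383) in VMH-Fed (log2 difference 1.92 ± 0.22 SE, limma adjusted p = 7.31e-08). It was thus well expressed in both nuclei. Sst, Agrp, Npy, Pomc, Cartpt, Ghrh and Tac2 are also arcuate neuron genes of the lists above, and Adcyap1 and Tac1 ventromedial ones. This overlap partly sets the shares of the precursors. Gal (galanin) had 128, 89.7, 71.4, 66 and 96.1 RPKM and between 3.82 and 23.1 (median 6.56) (log2 difference 3.36 ± 0.36 SE, limma adjusted p = 1.18e-08), and VMH-Fed 2 held the highest VMH value. Nmb (neuromedin B) had 7.47, 20.5, 7.24, 9.79 and 3.76 RPKM and between 1.72 and 5.19 (median 1.97) (log2 difference 1.46), with a single overlapping pair of libraries.

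Vasopressin and oxytocin were also higher in ARC-Fed, and both are far more abundant in the neighbouring PVN. Oxt had 123, 42.6, 57.1, 22.8 and 11.3 RPKM in ARC-Fed and between 8.49 and 16.5 (median 10.8) in VMH-Fed (log2 difference 1.65 ± 0.45 SE, limma adjusted p = 0.016), against a mean of 4066 RPKM in fed PVN. The values overlapped between groups, and without ARC-Fed 1, the highest library, Oxt did not pass (limma adjusted p = 0.109). Avp had 43.6, 14.7, 31.7, 30.3 and 6.36 RPKM and between 2.6 and 7.46 (median 6.1) (log2 difference 1.83 ± 0.34 SE, limma adjusted p = 0.000265), against 2113 RPKM in fed PVN. In all, 3 of 13 genes known for neighbouring nuclei were higher in ARC-Fed (23.1%, Oxt, Avp and Ppp1r17) and 1 in VMH-Fed (7.69%, Pmch). The summed RPKM of the list ran from 61.8 to 223 in ARC-Fed (median 96.9) and from 48.3 to 75.5 in VMH-Fed (median 63.3). The part that RNA of neighbouring cells had in these differences was not tested.

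The precursors higher in VMH-Fed were Adcyap1, Pmch, Nts and Tac1. Pmch, the precursor of melanin-concentrating hormone, had 5.06, 6.52, 2.23, 1.26 and 1.49 RPKM in ARC-Fed and 11.2, 12.8, 7.87, 33.7, 32.1 and 8.58 in VMH-Fed (log2 difference -2.06 ± 0.43 SE, limma adjusted p = 0.00114), against 420.2 RPKM in fed DMH. Its exons overlap those of Parpbp over 58.1% of their length, and 48.4% of its 50-base stretches recur in Parpbp transcripts, so reads of the 2 genes cannot be told apart there. Tac1, the precursor of substance P, had 25.5, 41.7, 47.2, 19.5 and 32.7 RPKM and between 39.6 and 83.7 (median 65.9) (log2 difference -0.98 ± 0.30 SE, limma adjusted p = 0.0392), and did not pass without ARC-Fed 1 (adjusted p = 0.112) or without ARC-Fed 4 (adjusted p = 0.147). Nts (neurotensin) stood just inside the threshold (adjusted p = 0.0828) and did not pass in 15 of the alternative settings. Without ARC-Fed 1 or ARC-Fed 4 only 2 precursors were higher in VMH-Fed. Pdyn, Penk and Nucb2 did not pass, with means of 52 against 48.5, 37.1 against 47.3 and 46.5 against 46.7 RPKM (ARC-Fed against VMH-Fed).

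The enzymes and granule proteins that mature peptides were split between the nuclei, 5 of 15 higher in ARC-Fed (33.3%) and 4 in VMH-Fed (26.7%). The prohormone convertase Pcsk1 had 28.8, 17.1, 19.6, 14.1 and 12.8 RPKM in ARC-Fed and between 4.79 and 12.4 (median 8.38) in VMH-Fed (log2 difference 1.0 ± 0.20 SE, limma adjusted p = 0.000861), whereas its relative Pcsk2 had 18.2, 16.8, 17.3, 16.5 and 17.2 and between 32.8 and 41.5 (median 38.6) (log2 difference -1.11 ± 0.10 SE, limma adjusted p = 3.31e-10). The 2 convertases thus differed in opposite directions, each without overlap. The granins Chgb and Scg2 were higher in ARC-Fed, at 309 against 193 and 519.8 against 371 RPKM (means, ARC-Fed against VMH-Fed), as were Scg3 and Vgf (log2 differences 0.54 and 0.85). Chga was higher in VMH-Fed (49.6 against 87.6 RPKM). The amidating enzyme Pam was higher in VMH-Fed by a small margin (log2 difference -0.38 ± 0.083 SE, limma adjusted p = 0.00203), and carboxypeptidase E (Cpe) averaged 539 ± 65 RPKM in ARC-Fed and 560.3 ± 45.4 RPKM in VMH-Fed and did not pass.

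Receptors for peptides and hormones were more often higher in the ARC, 19 of 49 tested (38.8%) against 7 higher in VMH-Fed (14.3%). The 3 listed receptors for neuropeptide Y were all in the first group. Npy2r had 24.6, 45.7, 46.7, 31.7 and 31.6 RPKM in ARC-Fed and between 4.57 and 7.86 (median 5.41) in VMH-Fed (log2 difference 2.42 ± 0.30 SE, limma adjusted p = 3.63e-07). Npy1r had 37.8, 45.6, 32, 33.7 and 38.8 RPKM and between 5.84 and 17.2 (median 12.1) (log2 difference 1.7 ± 0.24 SE, limma adjusted p = 4.64e-06), and Npy5r averaged 9.59 ± 5.89 RPKM in ARC-Fed and 1.95 ± 0.408 RPKM in VMH-Fed (log2 difference 1.69). Calcr, the receptor for calcitonin and, with its partners, amylin, had 32.8, 22.1, 26.1, 33.1 and 25.2 RPKM and between 0.79 and 5.1 (median 3.34) (log2 difference 2.98 ± 0.24 SE, limma adjusted p = 9.84e-12). The receptor for GLP-1, Glp1r, had 26.7, 38.2, 31.4, 31.4 and 34.3 RPKM and between 3.35 and 14.4 (median 5.96) (log2 difference 2.12 ± 0.39 SE, limma adjusted p = 0.000255), and the ghrelin receptor Ghsr had 9.08, 4.08, 5.92, 5.66 and 7.01 and between 0.364 and 1.36 (median 1.01) (log2 difference 1.88 ± 0.26 SE, limma adjusted p = 2.21e-06). Glp1r stood at 3.35 RPKM or more in every VMH-Fed library, whereas Ghsr stood at 1.36 RPKM or less there. The orphan receptor Brs3 averaged 5.51 ± 2.46 RPKM in ARC-Fed and 0.736 ± 0.199 RPKM in VMH-Fed. Lepr, the leptin receptor, was low in both nuclei, with 3.36, 2.94, 2.74, 3.32 and 3.51 RPKM and between 0.935 and 2.39 (median 1.93) (log2 difference 0.62 ± 0.17 SE, limma adjusted p = 0.0163).

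Receptors higher in VMH-Fed included Cckbr, given above, the orexin receptor Hcrtr1, at 0.658, 1.11, 0.743, 0.469 and 0.564 RPKM in ARC-Fed and 4.81, 0.856, 2.65, 7.43, 6.97 and 5.75 in VMH-Fed (log2 difference -1.59 ± 0.35 SE, limma adjusted p = 0.0023), and the IGF-1 receptor Igf1r, at 5.94 against 11.6 RPKM. VMH-Fed 2 fell within the ARC-Fed range for Hcrtr1 and the other VMH-Fed libraries lay above it. The melanocortin receptors Mc3r and Mc4r and the insulin receptor Insr did not pass. Mc4r was low in both nuclei (1.98 ± 1.45 RPKM in ARC-Fed and 1.62 ± 0.876 RPKM in VMH-Fed).

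Genes of GABA and glutamate transmission separated the nuclei. The GABA-synthesising enzymes Gad1 and Gad2 had 33.6, 22.8, 25.3, 25.1 and 29.4 RPKM and 237, 129, 132, 122 and 129 RPKM in ARC-Fed, against between 0.961 and 4.56 (median 2.08) and between 12.4 and 32.5 (median 14.6) in VMH-Fed (log2 differences 3.13 and 3.04). With Slc32a1 they were the 3 of 11 genes of this list higher in ARC-Fed (27.3%). The vesicular glutamate transporter Slc17a6 had 28.2, 33.2, 27.9, 28.4 and 22.3 RPKM in ARC-Fed and between 125 and 188 (median 153) in VMH-Fed (log2 difference -2.42 ± 0.17 SE, limma adjusted p = 5.11e-13). ARC-Fed thus held both kinds of transcript in every library, and VMH-Fed mainly Slc17a6. Glutamine synthetase (Glul), which is enriched in astrocytes, averaged 166 ± 17.7 RPKM in ARC-Fed and 295 ± 32.5 RPKM in VMH-Fed. In all, 5 members were higher in VMH-Fed (45.5%), and 3 were without ARC-Fed 3 or without VMH-Fed 4.

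Dopamine genes were more often higher in the ARC, 7 of 14 tested (50%). In VMH-Fed 1 was higher (7.14%), the dopamine receptor Drd1, whose call was lost without any 1 of 6 libraries. Besides Th, the vesicular monoamine transporter Slc18a2 had 18.6, 13.7, 10.3, 17.1 and 20.4 RPKM in ARC-Fed and between 1.52 and 3.91 (median 2.59) in VMH-Fed (log2 difference 2.24 ± 0.32 SE, limma adjusted p = 3.63e-06), the dopamine transporter Slc6a3 had 6.02, 5.76, 4.17, 5.02 and 3.24 and between 0.286 and 0.95 (median 0.343) (log2 difference 1.97 ± 0.18 SE, limma adjusted p = 5.07e-10), and Gch1, which makes the cofactor of Th, averaged 7.72 ± 3.38 RPKM in ARC-Fed and 1.39 ± 1.26 RPKM in VMH-Fed. Each ARC-Fed library stood above all VMH-Fed libraries for Slc6a3 and Slc18a2, and 1 VMH-Fed library overlapped ARC-Fed for Gch1.

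**Figure D3:**
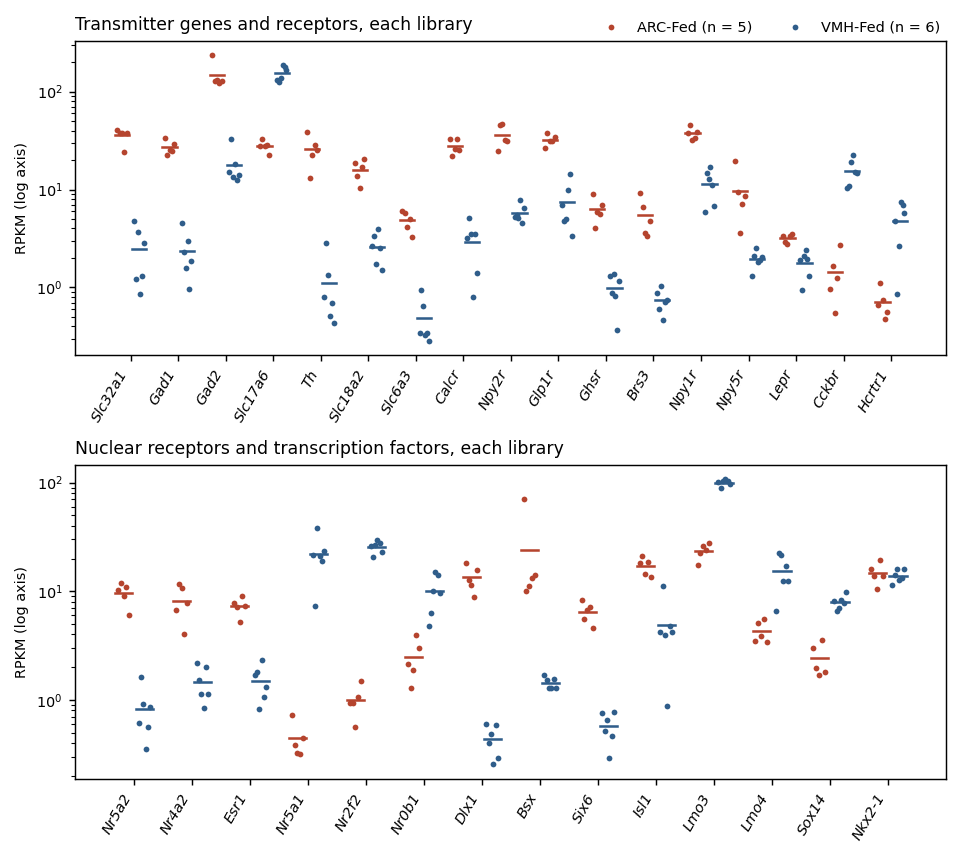
RPKM on a log axis of each ARC-Fed (red, n = 5) and VMH-Fed (blue, n = 6) library for transmitter genes and receptors (top) and for nuclear receptors and transcription factors (bottom), where a point is 1 library and a bar is the group mean. Slc32a1, Gad1 and Gad2 are higher in ARC-Fed and Slc17a6 in VMH-Fed without overlap, Nr5a2 and Nr5a1 differ in opposite directions, and Nkx2-1 overlaps.

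Nuclear receptors were split, 6 of 34 higher in ARC-Fed (17.6%) and 7 in VMH-Fed (20.6%). The 2 members of the Nr5a family differed in opposite directions. Nr5a2 (liver receptor homologue 1) had 10.3, 11.9, 9.08, 11 and 6.05 RPKM in ARC-Fed and between 0.35 and 1.64 (median 0.737) in VMH-Fed (log2 difference 2.55 ± 0.33 SE, limma adjusted p = 7.68e-07), the reverse of Nr5a1. Nr0b1 (DAX-1), a partner of Nr5a1, averaged 2.47 ± 1.05 RPKM in ARC-Fed and 10.01 ± 4.08 RPKM in VMH-Fed (log2 difference -1.63 ± 0.26 SE, limma adjusted p = 2.94e-05). The oestrogen receptor Esr1 had 7.86, 7.21, 5.27, 9.03 and 7.35 RPKM in ARC-Fed and between 0.819 and 2.33 (median 1.5) in VMH-Fed (log2 difference 1.75 ± 0.14 SE, limma adjusted p = 3.04e-11). Nr4a2 averaged 8.15 ± 3.05 RPKM in ARC-Fed and 1.47 ± 0.53 RPKM in VMH-Fed.

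Of 75 developmental transcription factors tested, 19 were higher in ARC-Fed (25.3%) and 12 in VMH-Fed (16%). Dlx1, a homeobox factor of GABAergic neurons, had 18, 12.8, 11.5, 8.89 and 15.8 RPKM in ARC-Fed and between 0.255 and 0.599 (median 0.444) in VMH-Fed (log2 difference 3.29 ± 0.26 SE, limma adjusted p = 1.2e-11), and Dlx2 and Dlx5 were also higher in ARC-Fed (log2 differences 1.63 and 2.03). Bsx, a homeobox regulator of Npy and Agrp, had 70.9, 10.1, 11.2, 13.2 and 14.1 RPKM and between 1.29 and 1.69 (median 1.4) (log2 difference 2.91 ± 0.33 SE, limma adjusted p = 4.18e-08). ARC-Fed 1 was far above the other ARC-Fed libraries for Bsx, and without it the difference was 2.42. Six6 averaged 6.47 ± 1.44 RPKM in ARC-Fed and 0.576 ± 0.186 RPKM in VMH-Fed and Isl1 17.1 ± 3.13 RPKM in ARC-Fed and 4.88 ± 3.37 RPKM in VMH-Fed. Otp had 5.11, 11.5, 5.43, 2.97 and 3.36 RPKM and 0.694, 0.694, 1.11, 0.894, 1.28 and 5.08 (log2 difference 1.39 ± 0.40 SE, limma adjusted p = 0.0257), and it did not pass without ARC-Fed 2 (adjusted p = 0.118).

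The LIM-only factors Lmo3 and Lmo4 were higher in VMH-Fed. Lmo3 had 17.6, 22.7, 26, 23.9 and 27.9 RPKM in ARC-Fed and between 88.3 and 108 (median 102) in VMH-Fed (log2 difference -2.05 ± 0.17 SE, limma adjusted p = 1.48e-11), and Lmo4 averaged 4.28 ± 0.977 RPKM in ARC-Fed and 15.4 ± 6.14 RPKM in VMH-Fed. Nkx2-2, Sox14 and Vgll2, listed as ventromedial genes, had log2 differences of -1.55, -1.41 and -0.70. Vgll2 was at the value of a gene without reads in 4 of 5 ARC-Fed libraries and had 3.33, 0.935, 2.31, 2.38, 1.16 and 1.02 RPKM in VMH-Fed. Tshz2 was higher in VMH-Fed (16.2 against 38.4 RPKM), yet 98.6% of its 50-base stretches recur in the transcript of Gm26883, so its value is uncertain. Nkx2-1, needed for the ventral hypothalamus as a whole, averaged 14.7 ± 3.28 RPKM in ARC-Fed and 13.9 ± 1.82 RPKM in VMH-Fed and did not pass.

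Of 33 genes of leptin, insulin and energy sensing, 9 were higher in ARC-Fed (27.3%) and 2 in VMH-Fed (6.06%, and 1 of these without any 1 of 5 libraries). Irs4, an insulin receptor substrate, had 169, 139.7, 133, 133 and 124 RPKM in ARC-Fed and between 30.7 and 38.6 (median 34.7) in VMH-Fed (log2 difference 1.96 ± 0.10 SE, limma adjusted p = 2.13e-16). Stat3, the transcription factor downstream of the leptin receptor, averaged 15.7 ± 3.28 RPKM in ARC-Fed and 8.44 ± 3.39 RPKM in VMH-Fed, and Foxo1, downstream of insulin, 16.4 ± 1.98 RPKM in ARC-Fed and 8.51 ± 3.76 RPKM in VMH-Fed. Ucp2, an uncoupling protein, had a log2 difference of 0.96. Insr averaged 11.9 ± 2.36 RPKM in ARC-Fed and 11.7 ± 3.06 RPKM in VMH-Fed and did not pass.

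Of 17 retinoid handling genes, 4 were higher in ARC-Fed (23.5%) and 1 in VMH-Fed (5.88%), a call of Aldh1a2 that was lost without any 1 of 8 libraries. Cyp26b1, which degrades retinoic acid, had 1.37, 4.45, 1.9, 1.46 and 2.24 RPKM in ARC-Fed and between 0.197 and 0.559 (median 0.373) in VMH-Fed (log2 difference 1.19 ± 0.15 SE, limma adjusted p = 2.25e-07), and the retinol carrier Rbp4 averaged 7.26 ± 2.5 RPKM in ARC-Fed and 1.16 ± 0.41 RPKM in VMH-Fed. With Crabp1 these are genes that bind or remove retinoids. Crabp1 is also an arcuate neuron gene of the lists above.

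Imprinted genes were more often higher in the ARC, 14 of 23 tested (60.9%) against 2 higher in VMH-Fed (8.7%), with a median of 0.52. The share higher in VMH-Fed was near the background of 7.65%. Dlk1, a paternally expressed Notch ligand, had 165, 131, 78.8, 126 and 132 RPKM in ARC-Fed and between 11.7 and 20.8 (median 14.9) in VMH-Fed (log2 difference 2.93 ± 0.21 SE, limma adjusted p = 5.32e-13). Plagl1, Peg10 and Ndn had log2 differences of 2.5, 1.83 and 0.98. Asb4 and Calcr, given above, belong to this list too. Meg3, the maternally expressed noncoding RNA of the same domain as Dlk1, was higher in VMH-Fed, with 108, 155, 114, 142 and 131 RPKM in ARC-Fed and between 184 and 226 (median 205) in VMH-Fed (log2 difference -0.68 ± 0.11 SE, limma adjusted p = 2.98e-05). The 2 genes of that domain thus differed in opposite directions. Ube3a averaged 29.8 ± 1.22 RPKM in ARC-Fed and 35.3 ± 3.61 RPKM in VMH-Fed and did not pass. The other member higher in VMH-Fed was Igf2, whose call was lost without any 1 of 7 libraries.

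Genes of calcium signalling and excitability were more often higher in the VMH. Of 26 calcium and calmodulin genes, 14 were higher in VMH-Fed (53.8%) and 2 in ARC-Fed (7.69%, and 1 without ARC-Fed 1 or without VMH-Fed 6). The median was -0.52. Besides Nrgn, the calcium sensor Vsnl1 had 417, 364, 333, 317 and 377 RPKM in ARC-Fed and between 855 and 1068 (median 928) in VMH-Fed (log2 difference -1.38 ± 0.13 SE, limma adjusted p = 5.44e-10), and the calcineurin subunit Ppp3ca had 29.6, 36.6, 32.8, 34 and 36.2 and between 90.3 and 120.4 (median 109) (log2 difference -1.63 ± 0.10 SE, limma adjusted p = 2.8e-14). The kinases and kinase-like proteins Camkv, Camk1g and Camk2a and the binding proteins Calb1 and Hpca had differences of -2.15, -1.89, -0.93, -1.39 and -1.4.

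Ion channels and receptors followed. Of 87 potassium channel genes, 24 were higher in VMH-Fed (27.6%) and 4 in ARC-Fed (4.6%). Kcna1 and Kcna2, subunits of delayed rectifier channels of axons, had log2 differences of -2.21 and -1.68, and Kcna5 of the same family was higher in ARC-Fed, with 9.29, 15.6, 16.3, 10.3 and 9.42 RPKM against between 2.27 and 3.59 (median 2.97) (log2 difference 1.71 ± 0.27 SE, limma adjusted p = 1.87e-05). Of 23 calcium channel genes, 7 were higher in VMH-Fed (30.4%) and 3 in ARC-Fed (13%). The auxiliary subunits Cacna2d1 and Cacna2d2 differed in opposite directions. Cacna2d1 had 15.4, 25.1, 24.6, 20.6 and 19.6 RPKM in ARC-Fed and between 79.1 and 117 (median 104) in VMH-Fed (log2 difference -2.2 ± 0.15 SE, limma adjusted p = 3.02e-13), and Cacna2d2 had 56, 37.7, 39, 31.8 and 47.7 and between 10.1 and 16.5 (median 13.9) (log2 difference 1.57 ± 0.15 SE, limma adjusted p = 1.86e-09).

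Of 24 glutamate receptor genes, 12 were higher in VMH-Fed (50%) and 2 in ARC-Fed (8.33%, and 1 without ARC-Fed 3). The metabotropic receptor Grm5 had 9.99, 8.42, 8.29, 9.93 and 8.86 RPKM in ARC-Fed and between 26.9 and 33.4 (median 31.8) in VMH-Fed (log2 difference -1.66 ± 0.13 SE, limma adjusted p = 1.18e-11), and the AMPA and NMDA subunits Gria3, Gria1 and Grin1 had differences of -1.56, -0.47 and -0.76. Of 19 GABA receptor genes, 10 were higher in VMH-Fed (52.6%) and 2 in ARC-Fed (10.5%). The subunit Gabrb2 had 4.15, 8.59, 5.14, 5.5 and 7.79 RPKM in ARC-Fed and between 16.4 and 22.3 (median 18.8) in VMH-Fed (log2 difference -1.5 ± 0.15 SE, limma adjusted p = 4.47e-09), and Gabra5 and Gabra4 differed in the same direction. The 2 subunits higher in ARC-Fed were Gabre, given above, and Gabrq, with 90.03, 72.4, 82.7, 67 and 69.2 RPKM against between 36.8 and 45.6 (median 41.9) (log2 difference 0.85 ± 0.11 SE, limma adjusted p = 5.18e-07).

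Of 77 axon guidance genes, 19 were higher in VMH-Fed (24.7%) and 10 in ARC-Fed (13%), and of 27 cadherins and protocadherins 7 (25.9%) and 4 (14.8%). Slit2 had 3.99, 3.28, 3.69, 3.78 and 3.85 RPKM in ARC-Fed and between 10.8 and 17.7 (median 15.1) in VMH-Fed (log2 difference -1.74 ± 0.14 SE, limma adjusted p = 1.72e-11), the same direction as Slit3. The netrin receptor Unc5d had 47.6, 34.4, 33.7, 32 and 33.1 RPKM and between 10.3 and 13.1 (median 12.1) (log2 difference 1.5 ± 0.14 SE, limma adjusted p = 3.27e-10). The receptor Ephb1 and the cadherins Cdh4 and Cdh13 were higher in VMH-Fed (log2 differences -1.73, -1.19 and -1.68). The neuronal pentraxins Nptx1 and Nptx2, which cluster AMPA receptors, averaged 8.25 against 59.6 and 4.97 against 28.2 RPKM (ARC-Fed against VMH-Fed), and the growth factor Bdnf 0.687 against 5.43 RPKM. Among 10 serotonin receptors, 2 were higher in VMH-Fed (20%) and 1 in ARC-Fed (10%). Htr1b, higher in VMH-Fed, had 0.903, 0.969, 1.67, 1.27 and 1.28 RPKM in ARC-Fed and between 5.41 and 8.38 (median 6.98) in VMH-Fed. Of 18 RGS genes, which shorten G protein signals, 4 were higher in each nucleus (22.2%), with 2 in VMH-Fed without ARC-Fed 4 or without VMH-Fed 1.

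Cytosolic ribosomal protein genes were higher in the ARC as a block. Of 77 tested, 65 were higher in ARC-Fed (84.4%) and 0 in VMH-Fed, with a median of 0.64. Their summed RPKM ran from 8653 to 10503 in ARC-Fed (median 9546) and from 5457 to 7194 in VMH-Fed (median 5932), without overlap. Rps9 had 119.8, 125, 109, 104 and 92.7 RPKM and between 37.4 and 54.9 (median 48.1) (log2 difference 1.22 ± 0.12 SE, limma adjusted p = 8.06e-10), and Rps6 and Rpl10 had differences of 0.96 and 0.95. Ribosomal proteins have many pseudogenes, and 72.2%, 57.2% and 55.1% of the 50-base stretches of Rps4x, Rpl10 and Rps6 recur in other transcripts, so single values are uncertain. The direction held under each scaling, with 64 to 68 members higher in ARC-Fed and 0 in VMH-Fed. Of 76 nuclear genes of the respiratory chain, 2 were higher in ARC-Fed (2.63%) and 4 in VMH-Fed (5.26%). In VMH-Fed it was 1 without ARC-Fed 5 and 2 without VMH-Fed 4, and the sums of the list overlapped.

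Markers of cell types also moved with nucleus. Of 8 neuron markers, 6 were higher in VMH-Fed (75%) and 0 in ARC-Fed (1 was without ARC-Fed 3, VMH-Fed 2 or VMH-Fed 3). Their summed RPKM ran from 652 to 712 in ARC-Fed (median 675) and from 1317 to 1546 in VMH-Fed (median 1470.3). Snap25, a synaptic SNARE protein, had 325, 293, 312, 322 and 316 RPKM in ARC-Fed and between 733 and 852 (median 831) in VMH-Fed (log2 difference -1.37 ± 0.085 SE, limma adjusted p = 2.8e-14), and Rbfox3 (NeuN) had 11.6, 11.9, 10.5, 16.6 and 12 and between 24.4 and 39.3 (median 31.6). The neurofilaments Nefl and Nefm had differences of -1.84 and -1.88, and share 31.8% and 29.3% of their 50-base stretches with other transcripts. Tubb3 averaged 77.2 ± 16.7 RPKM in ARC-Fed and 81.4 ± 11.8 RPKM in VMH-Fed and did not pass.

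Of 13 oligodendrocyte markers, 5 were higher in VMH-Fed (38.5%) and 0 in ARC-Fed. Their sums were 131 to 172 RPKM (median 142) in ARC-Fed and 268 to 418 (median 316) in VMH-Fed. Mbp, a myelin protein, had 21.2, 23.8, 29.4, 20.4 and 35.1 RPKM and between 59.4 and 86.7 (median 77.5) (log2 difference -1.51 ± 0.17 SE, limma adjusted p = 5.29e-08), and Mobp had a difference of -1.76. Of 16 tanycyte and ependymal markers, 7 were higher in ARC-Fed (43.8%) and 0 in VMH-Fed. The 7 included Gpr50 (10.5 against 1.24 RPKM), Dio2 (6.56 against 2.91 RPKM) and Col23a1 (5.11 against 1.68 RPKM). The sums overlapped (69.1 to 101 in ARC-Fed, 35.3 to 70.0 in VMH-Fed). Rax, which defines tanycytes, was at the value of a gene without reads in 1 of 5 ARC-Fed and 4 of 6 VMH-Fed libraries, at 0.687 to 2.02 RPKM in ARC-Fed and 0.599 to 2.11 in VMH-Fed. Of the 50-base stretches of Rax, 38.5% recur in transcripts of Raxos1. Leaving out any 1 of the 11 libraries left 5 to 6 tanycyte and ependymal markers higher in ARC-Fed. A fit of only these 11 libraries left 3, and the fit without the 2 shallowest VMH-Fed libraries left 4.

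Of 10 astrocyte markers, 6 were higher in VMH-Fed (60%) and 1 in ARC-Fed (10%). Leaving out any 1 of the 11 libraries left 2 to 5 of the 6, with 2 without ARC-Fed 1, ARC-Fed 2 or VMH-Fed 1 and 3 without ARC-Fed 3, ARC-Fed 5, VMH-Fed 4 or VMH-Fed 5. The member higher in ARC-Fed was Gfap, with 11.5, 7.7, 6.96, 18.1 and 5.62 RPKM and between 1.13 and 6.57 (median 3.13) (log2 difference 1.32 ± 0.33 SE, limma adjusted p = 0.00762). The sums were 266 to 330.4 RPKM (median 286) in ARC-Fed and 333 to 429 (median 367) in VMH-Fed. Aqp4, Sox9 and Aldh1l1 did not pass, with log2 differences of 0.37, 0.17 and 0.16. In the fasted libraries 1 astrocyte marker was higher in VMH-Fast and 2 in ARC-Fast, so the fed count towards VMH did not recur there. Of 9 microglia markers 2 were higher in ARC-Fed (22.2%), with 1 without ARC-Fed 1 or ARC-Fed 2 and 0 without VMH-Fed 6. Of 11 endothelial and mural markers 3 were higher in VMH-Fed (27.3%), and 1 was without ARC-Fed 3. Of 5 blood markers 0 passed, and of 5 pituitary markers 1 did, Prl, whose call was lost without ARC-Fed 3 or ARC-Fed 5 and which was at the value of a gene without reads in 3 of 5 ARC-Fed and 6 of 6 VMH-Fed libraries. In these bulk samples fewer cells of a type and less RNA per cell cannot be told apart, and the part of neuron and glia content in the calcium, channel, receptor and ribosomal differences was not tested.

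**Figure D4:**
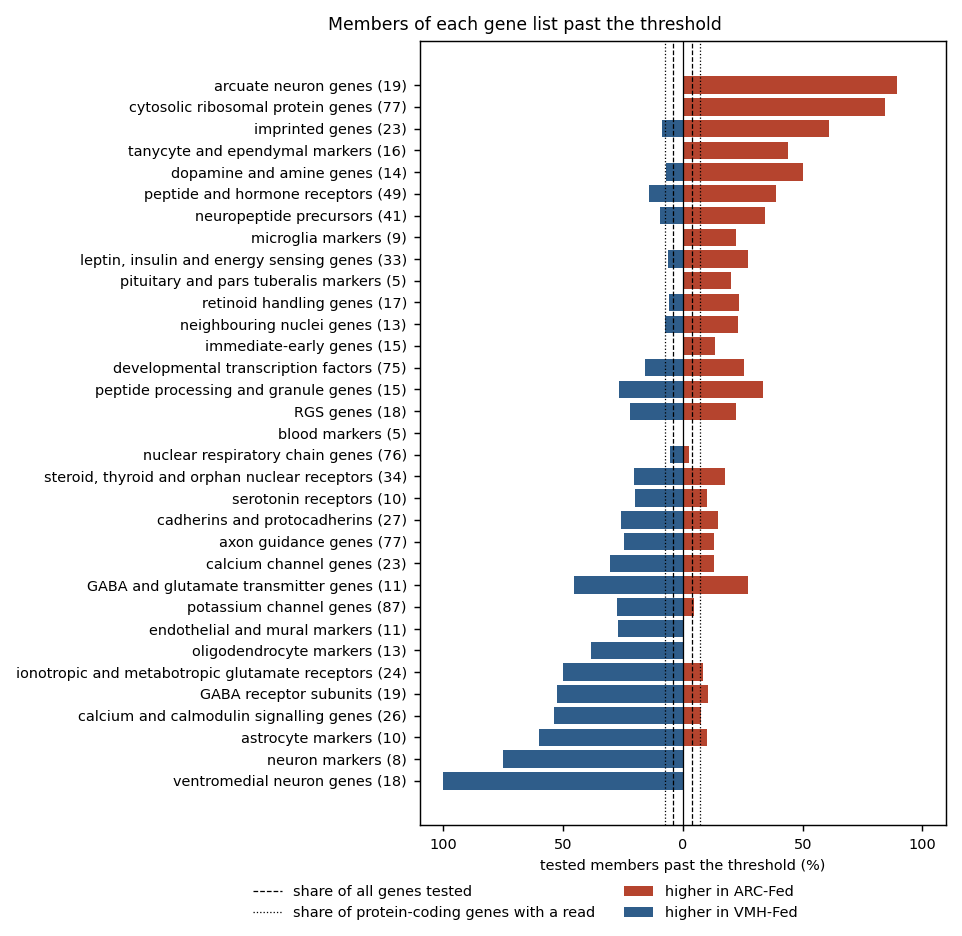
Share of the tested members of each of 33 gene lists (number tested in parentheses) that were higher in ARC-Fed (red, to the right) or in VMH-Fed (blue, to the left), in percent, with dashed lines at the shares of all genes tested (3.83% and 4.07%) and dotted lines at those of protein-coding genes with a read in at least 4 libraries (7.19% and 7.65%). Arcuate neuron and cytosolic ribosomal protein genes reach farthest to the right, and ventromedial neuron and neuron marker genes farthest to the left.

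Of 15 immediate-early genes, which report recent neuronal activity, 2 were higher in ARC-Fed (13.3%) and 0 in VMH-Fed, where 1 was without ARC-Fed 1. Jun had 17.2, 18.3, 12.7, 32.7 and 15.9 RPKM in ARC-Fed and between 3.41 and 10.3 (median 4.45) in VMH-Fed (log2 difference 1.61 ± 0.25 SE, limma adjusted p = 1.65e-05), and Fosl2 averaged 6.6 ± 1.98 RPKM in ARC-Fed and 1.86 ± 0.335 RPKM in VMH-Fed. Fos had 5.86, 2.64, 5.12, 5.69 and 2.94 RPKM and between 0.708 and 4.64 (median 2.65) and did not pass (log2 difference 0.71 ± 0.41 SE, limma adjusted p = 0.432).

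The comparison was repeated in the libraries of fasted mice, which are different libraries of the same nuclei. Both comparisons came from the same fit, with a shared spread for each gene. The batch means had been removed over fed and fasted libraries together. The tests were thus not fully separate, and a gene with a small spread passes more easily in both. There, 1558 genes were higher in ARC-Fast (4.64%) and 1434 in VMH-Fast (4.27%). Of the 1286 genes higher in ARC-Fed, 753 also passed in the fasted libraries, which is 58.6% of the fed and 48.3% of the fasted list, 0 passed in the opposite direction, and 1207 (93.9%) had the same sign. Of the 1368 genes higher in VMH-Fed, 907 passed, which is 66.3% and 63.2%, 0 passed in the opposite direction, and 1302 (95.2%) had the same sign. Among genes that differed by at least 1 in fed mice, 234 of 315 (74.3%) and 331 of 392 (84.4%) passed in the fasted libraries, and all 30 leading genes did.

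The test of whether the difference between the nuclei itself differed between fed and fasted mice found 0 genes by limma, with 1633 genes (4.86%) at an unadjusted p under 0.05. The gene nearest to passing was Fam107b, with a difference of 0.44 ± 0.31 in fed and 2.66 ± 0.31 in fasted mice (adjusted p = 0.405). Rasgrp1 differed by 3.46 in fed and 2.39 in fasted mice, and Tmem150a, a membrane protein, by 1.68 and -0.25 (adjusted p = 0.537 for both). The same p was found for Ube2t and Myzap, which averaged 1.32 against 0.616 and 0.544 against 0.435 RPKM (ARC-Fed against VMH-Fed). Agrp averaged 133 RPKM in ARC-Fed and 409 RPKM in ARC-Fast, and its difference between the nuclei was 4.93 ± 0.32 in fed and 6.67 ± 0.32 in fasted mice (adjusted p = 0.646 for the change). For Npy the difference was 5.12 ± 0.42 and 6.77 ± 0.42 (adjusted p = 0.929). A p that misses the threshold does not show that the differences were equal.

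**Figure D5:**
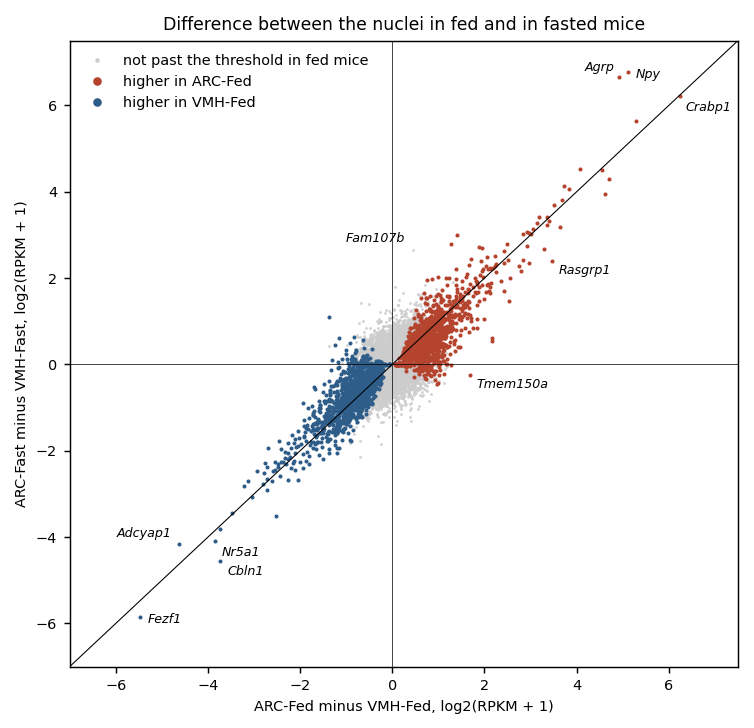
ARC minus VMH difference on the log2(RPKM + 1) scale in fed mice (horizontal axis) and in fasted mice (vertical axis) for each gene tested, with genes past the threshold in fed mice in red (higher in ARC-Fed) or blue (higher in VMH-Fed) and the line of equal differences. Most coloured genes lie in the quadrants of equal sign, Agrp and Npy lie above the line, and Tmem150a lies near 0 in fasted mice.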

How the data were processed

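RNA-seq of laser-captured nuclei of wild-type mice was used, with 5 ARC-Fed and 6 VMH-Fed libraries as the comparison and all 42 libraries in the fit. Per the labels and the study's methods, the authors aligned reads with TopHat (TopHat2 2.0.11) to GRCm38 and worked with edgeR and limma. CASAVA 1.7 and Cufflinks 2.2.1 are also in the submitters' processing notes, and outlier libraries were removed before deposit. The deposited values are RPKM per gene, and 0 columns belonged to samples of another series. The table held 0 values equal to 0. Shared lowest values showed that a count (mean 5 reads, 1.46 to 14.5, in proportion to depth) had been added and that means of 3 batches of 10, 16 and 16 libraries had been removed on the log scale. Neither step was stated, and the batch of each library was read from the values. Depth was estimated from the steps of low values (mean 4.57 M reads). All read numbers given here for libraries are this estimate. It is below the average of sequenced reads per sample that the study reports, and the reason was not examined.

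Genes with RPKM of at least 1 in at least 4 libraries (33579 of 37907) were fitted in limma 3.58.1 (R 4.3.3) as log2(RPKM + 1) with 8 group means, no covariate, an intensity trend and two-sided Benjamini-Hochberg adjustment over all genes. Of these genes, 15934 would pass this filter without a read. The p-values spend no degrees of freedom on the removed batches. A count model was not used because the values are not counts. Depth was compared by an exact permutation test, and for 5 against 6 libraries the smallest two-sided p is 0.00433. The fit was tested on simulated data. Named genes were the 15 largest differences in each direction that passed without overlap, list members with the largest differences first and members that did not pass as values, and the 5 lowest interaction p-values. Members whose call was unstable are mostly counted and not given values, a choice made after their values were seen. A few list members are not reported here. The comparison, gene lists and tests were chosen with earlier results of these data known, and no list is independent evidence. Symbols, positions (1-based, GRCm38) and exon overlaps came from GENCODE, and shared 50-base stretches from its transcripts. Of 155 genes checked, 126 shared under 5% and 4 shared 50% or more. The alternatives covered the pseudocount, filter, samples in the fit, spread, covariates, scaling, threshold, replicate number as a block and each library left out. The filter on genes with a read and the fit without the 2 shallowest VMH-Fed libraries were chosen after seeing the data.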

Additional observations from a re-analysis of the deposited data

Results flagged for a closer look

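Within the 155 reported genes, a group was examined for a library whose gap to its nearest neighbour exceeded the 95% critical value of Dixon's test relative to the range of the group. Of 310 gene and group pairs, 35 had such a library. For independent and normally distributed values the test would flag about 1 in 20 (15.5). The RPKM values were not put on a log scale and genes of a library can move together, so 15.5 is only a rough guide.

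VMH-Fed 2 was the highest of its group for Agrp at 8.82 RPKM (others 2.03 to 3.58), Cartpt at 47.8 RPKM (others 21.1 to 30.3), Dgkk at 11.3 RPKM (others 1.4 to 4.27), Dlx5 at 3.63 RPKM (others 0.834 to 1.84), Gad2 at 32.5 RPKM (others 12.4 to 18.2), Gal at 23.1 RPKM (others 3.82 to 10.9) and Vgf at 26.1 RPKM (others 9.71 to 13.8). All of these are genes that were higher in ARC-Fed, and the library had 3.08 M reads. VMH-Fed 1 was the highest of its group for Dio2 at 7.34 RPKM (others 1.61 to 2.49), Gch1 at 3.83 RPKM (others 0.331 to 1.41), Glul at 358 RPKM (others 275 to 303), Npy at 41.5 RPKM (others 4.2 to 11.5), Ppp1r17 at 8.49 RPKM (others 4.76 to 5.82) and Tac2 at 12.2 RPKM (others 1.39 to 3.22). This is the library apart on the second principal component, with 2.02 M reads. Without it the log2 difference of Npy was 5.54 and that of Tac2 4.96, against 5.12 and 4.62 with it.

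ARC-Fed 1 was the highest of its group for 4933403O08Rik at 66.7 RPKM (others 18.9 to 27.2), Bsx at 70.9 RPKM (others 10.1 to 14.1), Dgkk at 128 RPKM (others 68.3 to 73.8), Gad2 at 237 RPKM (others 122 to 132), Kcna1 at 7.05 RPKM (others 0.99 to 2.14) and Unc5d at 47.6 RPKM (others 32 to 34.4). It was the lowest for Nefl at 44.8 RPKM (others 56 to 59.6). It had 4.02 M reads. ARC-Fed 4 was the highest of its group for Jun at 32.7 RPKM (others 12.7 to 18.3), Rbfox3 at 16.6 RPKM (others 10.5 to 12) and Slit3 at 3.74 RPKM (others 1.1 to 1.81). It was the lowest for Scg2 at 464 RPKM (others 522 to 543) and Slc32a1 at 24.5 RPKM (others 37.5 to 40.3). ARC-Fed 2 was the highest of its group for Cyp26b1 at 4.45 RPKM (others 1.37 to 2.24), Otp at 11.5 RPKM (others 2.97 to 5.43), Rax at 2.02 RPKM (others 0.687 to 0.998) and Tshz2 at 21.1 RPKM (others 14.3 to 16.1). ARC-Fed 3 was the highest of its group for Myzap at 0.93 RPKM (others 0.336 to 0.496). ARC-Fed 5 was the highest of its group for Glra1 at 7.68 RPKM (others 1.93 to 3.41). Without ARC-Fed 2 the difference of Otp was 1.13 (limma adjusted p = 0.118), and no other gene named here lost its call without the library concerned. Mc3r, Myzap and Rax did not pass with or without it.

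VMH-Fed 4 was the highest of its group for Kcnab2 at 24.9 RPKM (others 9.93 to 15.4) and Mc3r at 22.4 RPKM (others 7.2 to 11.2). VMH-Fed 3 was the highest of its group for Tbx3 at 3.23 RPKM (others 0.729 to 1.16). VMH-Fed 6 was the highest of its group for Otp at 5.08 RPKM (others 0.694 to 1.28). ARC-Fed 1, VMH-Fed 1 and VMH-Fed 2 held 7, 6 and 7 of the 35. They are the libraries of these groups in the inferred batch with 1 ARC-Fed library. The cause of these single high or low values, and the part of the removed batch means in them, was not tested.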

How the results depend on the processing

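Of the 155 reported genes, 148, among them all 140 past the threshold, kept their direction under each of the 27 alternative settings in which they were tested (26 low genes were not tested with a mean RPKM of at least 5). The other 7 passed the threshold in 0 settings and changed sign. With 1 library left out, their log2 differences ran from -0.0439 to 0.144 for Insr, -0.0827 to 0.230 for Mc3r, -0.103 to 0.297 for Mc4r, -0.0471 to 0.160 for Nkx2-1, -0.122 to 0.0667 for Nucb2, -0.123 to 0.149 for Rax and -0.179 to 0.0192 for Tubb3. Mc3r was also at -0.0579 with depth as a covariate, -0.0343 with the replicate block and -0.146 without the 2 shallowest VMH-Fed libraries (0.0241 with all). Nucb2 was at 0.0464 with array weights, 0.0120 with quantile normalization, 0.00502 with the replicate block and 0.0636 without those 2 libraries (-0.0141 with all), and Rax at -0.000296 with quantile normalization (0.0212 without it). Of the 140 past the threshold, 103 passed in every setting and 37 missed it in at least 1, of which 25 did so only with the replicate number as a block. List members whose call was unstable were mostly left out of the 155 genes after their values were seen. That choice partly sets the counts of 148, 140 and 103. Fitting only the 11 fed ARC and VMH libraries gave 857 genes higher in ARC-Fed and 980 in VMH-Fed (1286 and 1368 with all 42 libraries), a fit with fewer libraries behind each spread. A further demand of a log2 difference of at least 1 left 315 and 392 in fed and 376 and 425 in fasted libraries. Leaving out 1 library at a time gave 1057 to 1293 and 1174 to 1375 genes, and 0 to 1 for the interaction (1 without ARC-Fed 3 or without VMH-Fed 3). It moved the log2 difference in depth to between 0.396 and 0.704 (0.586 with all), with exact permutation p-values of 0.0556 to 0.0667 in the 7 fits that missed 0.05. Without the 2 shallowest VMH-Fed libraries the counts were 1130 and 1351, and among genes with a read in at least 4 libraries, adjusted over those alone, 1505 and 1561. The scalings moved the median of all genes by between -0.0104 and 0.00903. The labels number replicates in each group, and deviations of same-numbered ARC-Fed and VMH-Fed libraries correlated at -0.085 to 0.042 over 10426 genes. Correlations near 0 cannot show whether libraries shared a mouse, because different nuclei need not vary together. By the inferred batches, ARC-Fed 2 and VMH-Fed 2, and ARC-Fed 4 and VMH-Fed 4, fell in different batches. Same-numbered libraries 1, 3 and 5 shared a batch, so whether the number pairs them stayed unknown. The fit with the replicate number as a block used only the 11 fed ARC and VMH libraries. It gave 330 genes higher in ARC-Fed and 452 in VMH-Fed, against 857 and 980 in those libraries without the block. The added count limits low genes most, and a call lost near it does not show that the nuclei are alike.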
